A study of Mus musculus with 6 samples.

Results

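The BCL2 family decides at the mitochondrion whether a cell lives or dies. Of 10 family genes looked for in long-term hematopoietic stem cells (LT-HSCs), 9 were measured. The 10 were taken by symbol: the anti-apoptotic genes Bcl2, Bcl2l1 and Mcl1, the BH3-only genes Bcl2l11, Bbc3, Pmaip1, Bid and Bad, and the effectors Bax and Bak1. Each measured gene had 1 probe set with that symbol, out of 19938 genes and 23410 named probe sets in all. Bax was not analysed here, so Bak1 alone stood for the effectors. None of the 9 genes differed between genotypes beyond the spread between pools.

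The cells came from bone marrow of female C57BL/6 mice, 8 to 12 weeks old. In the WT mice the latexin gene (Lxn) is intact, and in the Lxn-/- mice exons 2 to 4 are deleted and the protein is missing. The sort kept cells without lineage markers, CD34 and a marker written as Flt2, and with Sca1 and c-Kit. Each genotype had 3 biological pools of nearly 100000 cells from 10 to 20 mice, and each pool went on 1 Affymetrix MoGene array, so the spread between arrays is a spread between pools and not between single mice. Loss of latexin, an inhibitor of carboxypeptidases, has been reported to lower apoptosis of these cells, and the comparison asks whether the transcripts of the family differ with it. All values are log2 signals after robust multi-array average (RMA) normalization, and all differences are Lxn-/- minus WT. They were tested with limma, a linear model that shares information on the spread over genes, with p-values adjusted by Benjamini-Hochberg over all named probe sets and SE its moderated standard error. The dim level is the signal below which lie 95% of the 1212 probe sets for receptors of odorants and pheromones, 6.98 in WT and 6.90 in Lxn-/-. All 9 family genes were above it, and the lowest single value, that of Bbc3, stood 0.53 above the dim level over all arrays.

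Anti-apoptotic members hold the outer mitochondrial membrane closed by binding the death-promoting members. BH3-only members are sensors that are switched on by stress, loss of cytokines or DNA damage and that occupy the anti-apoptotic proteins. Once freed, BAX and BAK form pores, cytochrome c leaves the mitochondrion, and caspases are activated. In blood stem cells MCL1 is known to be needed for survival, and excess BCL2 enlarges the stem cell pool in mice. Much of the control acts on the proteins, by phosphorylation, cleavage and degradation, which an array does not read.

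The stretch before the transcription start is shown for Bcl2l11 and Bak1, since their signals ran in opposite senses over the arrays, and for a start of Bbc3, which shares a set of letters with Bcl2l11. The sequences are from RefSeq, build GRCm38.p6, 250 bases up to the base before the start, on the strand of the gene. The Bcl2l11 stretch is chr2:128125788-128126037 on the + strand, that of Bak1 is chr17:27028628-27028877 on the - strand and that of Bbc3 is chr7:16310011-16310260 on the + strand. Capitals mark GTAAACA, the core read by forkhead factors, on either strand.
Bcl2l11: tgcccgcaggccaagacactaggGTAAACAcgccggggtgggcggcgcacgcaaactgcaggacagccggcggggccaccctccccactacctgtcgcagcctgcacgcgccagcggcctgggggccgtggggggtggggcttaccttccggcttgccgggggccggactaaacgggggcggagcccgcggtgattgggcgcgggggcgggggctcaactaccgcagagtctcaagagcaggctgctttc
Bak1: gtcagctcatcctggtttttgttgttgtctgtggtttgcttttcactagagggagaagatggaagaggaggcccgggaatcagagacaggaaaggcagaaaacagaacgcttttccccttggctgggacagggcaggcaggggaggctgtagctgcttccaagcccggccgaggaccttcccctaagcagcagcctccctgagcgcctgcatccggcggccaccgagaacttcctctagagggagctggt
Bbc3: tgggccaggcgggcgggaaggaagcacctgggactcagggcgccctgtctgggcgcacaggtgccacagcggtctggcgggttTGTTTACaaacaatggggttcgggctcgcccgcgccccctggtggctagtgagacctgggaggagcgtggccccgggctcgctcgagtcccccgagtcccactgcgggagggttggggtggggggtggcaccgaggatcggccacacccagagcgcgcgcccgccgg
GTAAACA lay in 1 of the starts listed for Bcl2l11 and in 1 of those for Bbc3, and in 3.17% of all 32851 stretches of this length. The other letters searched on both strands were the cyclic AMP response element TGACGTCA, the E-box CACGTG and the serum response element. They occurred in 1.55%, 6.02% and 1.47% of all stretches, none of them overlapped GTAAACA here, and none was in the 3 stretches shown. The E-box was found before another start listed for Bbc3 and before a start of Bax. A match describes the letters and does not show binding.

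The 3 measured anti-apoptotic genes had slightly higher mean signals in Lxn-/- pools, by 0.054 to 0.12 on the log2 scale, and none passed the test. Bcl2, the founding survival gene of the family, read 11.86, 12.23 and 12.22 in WT and 12.01, 12.33 and 12.21 in Lxn-/-. The first pool of each genotype was the low one, and the ranges overlapped over most of their length. The difference was 0.082 (SE 0.12, 95% confidence interval -0.20 to 0.37). Without WT replicate 1 it was -0.039, so its direction rests on that pool. In these pooled cells, fewer cells of a type and less RNA per cell cannot be told apart.

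Bcl2l1, which encodes BCL-XL, the survival factor of maturing red cells and platelets, read 8.53, 8.52 and 8.60 in WT and 8.59, 8.68 and 8.55 in Lxn-/-. These 6 values spanned only 0.16, and the pooled SD within genotypes was below that of all but 12.9% of genes. The difference was 0.054 (SE 0.067, 95% confidence interval -0.10 to 0.21), and quantile normalization brought it to -0.0034.

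Mcl1, whose short-lived protein must be made continuously, read 11.74, 11.70 and 11.64 in WT and 11.68, 11.81 and 11.94 in Lxn-/-. One Lxn-/- pool lay among the WT values and the other pools lay above all of them. The difference of 0.12 (SE 0.082, 95% confidence interval -0.074 to 0.30) was the largest among the survival genes, a 1.08-fold higher mean. Its adjusted p was 0.993 in limma and its exact permutation p was 0.3. Without Lxn-/- replicate 3 it was 0.051. Immediate early genes, the transcripts that a stimulus induces within minutes, had higher means in Lxn-/- for 13 of 14 genes, with a median of 0.28. Their mean level was 10.95 to 11.57 in WT and 11.49 to 11.71 in Lxn-/-, and all 14 were above the dim level. Over the 6 arrays, Mcl1 and this list had r = 0.741 (exact permutation p = 0.0917) and rho = 0.714 (exact permutation p = 0.136). This was 1 of 108 relations computed, with an adjusted p of 0.562 for r by Benjamini-Hochberg. The part of these genes in the Mcl1 difference was not tested.

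**Figure D1:**
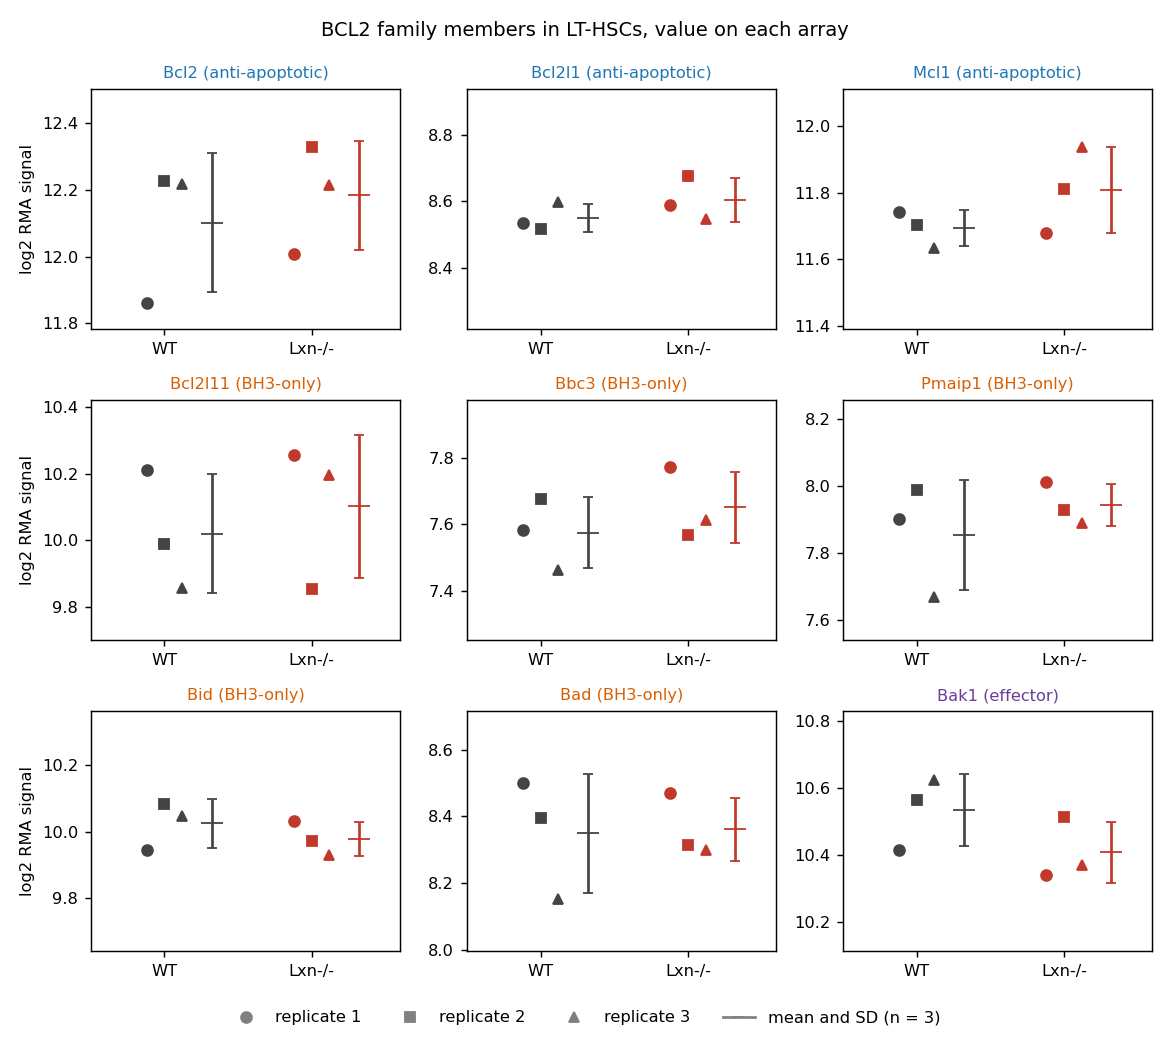
Log2 RMA signal of the 9 measured BCL2 family genes on each of the 6 arrays, with WT in grey and Lxn-/- in red; symbols mark the replicate number, horizontal ticks the mean and bars the SD (n = 3). Every panel spans the same height, so the spread can be compared, and in all 9 panels the values of the genotypes overlap.

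Among the BH3-only genes, 4 of 5 had a higher mean in Lxn-/- and 1 a lower mean, and none passed the test. Bcl2l11 encodes BIM, the sensor that follows loss of cytokine signals and binds every anti-apoptotic member. It read 10.21, 9.99 and 9.86 in WT and 10.25, 9.86 and 10.20 in Lxn-/-. Both genotypes covered nearly the same range, and the difference was 0.082 (SE 0.13, 95% confidence interval -0.22 to 0.38). It was 0.0012 without WT replicate 3 and 0.21 without Lxn-/- replicate 2. Its pooled SD of 0.20 was above that of 90.1% of genes, and the pooled SD of Bcl2 was above that of 88.2%, against a median of 0.10 over all genes. These wide spreads give both genes the widest intervals of the family.

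Bbc3 and Pmaip1 encode PUMA and NOXA, both targets of p53, and NOXA binds MCL1 in particular. Bbc3 read 7.58, 7.68 and 7.46 in WT and 7.77, 7.57 and 7.61 in Lxn-/-, a difference of 0.077 (SE 0.085). Pmaip1 read 7.90, 7.99 and 7.67 in WT and 8.01, 7.93 and 7.89 in Lxn-/-, a difference of 0.091 (SE 0.093). WT replicate 3 was the lowest of the 6 arrays for both genes. Without it, the difference was 0.021 for Bbc3 and -0.0011 for Pmaip1.

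Bid, which caspase 8 cuts to link death receptors to the mitochondrion, read 9.94, 10.08 and 10.05 in WT and 10.03, 9.97 and 9.93 in Lxn-/-. The difference was -0.047 (SE 0.069) and the values interleaved. Bad, which survival kinases phosphorylate and 14-3-3 proteins then hold in the cytosol, read 8.50, 8.40 and 8.15 in WT and 8.47, 8.32 and 8.30 in Lxn-/-. The low WT value again came from replicate 3. The difference was 0.012 (SE 0.10), and it turned to -0.086 without WT replicate 3, to -0.042 without Lxn-/- replicate 1, to -0.047 with quantile normalization and to -0.033 with a common median.

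Bak1, the measured effector among the listed genes, had the largest difference in size of the 9 genes. It read 10.41, 10.56 and 10.62 in WT and 10.34, 10.51 and 10.37 in Lxn-/-. Lxn-/- replicates 1 and 3 lay below all WT values, and replicate 2 lay between them. The difference was -0.13 (SE 0.083, 95% confidence interval -0.32 to 0.065), with an adjusted p of 0.993 in limma. The exact permutation p was 0.2, where 0.1 is the smallest that 3 arrays against 3 allow. The sign was the same in all 15 alternative settings, but not all of them could change it. An intensity trend, robust eBayes, the replicate block and a changed choice of probe sets cannot move this difference of 1 probe set. Quantile normalization, a common median and array weights gave -0.13, -0.17 and -0.15, and leaving out 1 array gave -0.19 to -0.081.

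Over the family, 0 of 9 genes passed an adjusted p of 0.05 in limma, and 0 of 9 had an unadjusted p under 0.05. Over all 23410 named probe sets, 0% passed after adjustment and 3.9% were under 0.05 before it. In 0 of 9 genes were the genotypes free of overlap, against 8.98% of all probe sets. The adjusted p-values of the family ran from 0.993 to 0.999. The mean was higher in Lxn-/- for 7 of 9 genes, against 44% of all genes, and the median difference was 0.077, against -0.013 over all genes. That count fell to 5 of 9 without WT replicate 3 and with quantile normalization, and to 6 of 9 with a common median, with array weights, without WT replicate 1 and without Lxn-/- replicate 1.

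The intervals show how large a change could have gone unseen. Their half-widths ran from 0.15 for Bcl2l1 to 0.30 for Bcl2l11, against a median of 0.19 over all genes. Taken as folds of Lxn-/- over WT, the 9 intervals lay between 0.80-fold and 1.30-fold. They bound the change in array signal, which can understate a change in transcript, above all for Bbc3 and Pmaip1 near the dim level.

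**Figure D2:**
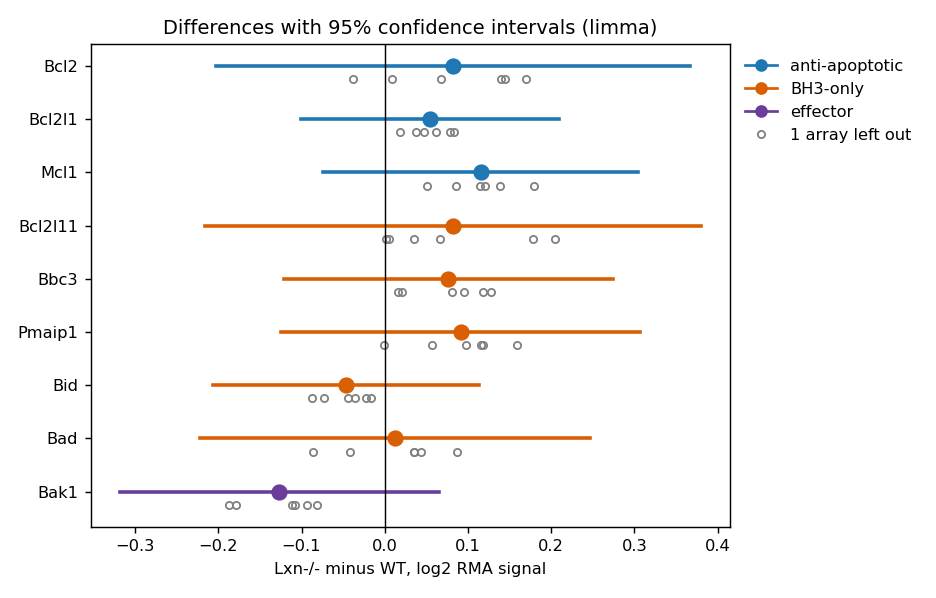
Difference between Lxn-/- and WT means on the log2 scale for each gene (filled points) with limma's 95% confidence interval (lines), coloured by class; open points are the difference with 1 array left out. Every interval includes 0, and the open points of Bcl2, Pmaip1 and Bad fall on both sides of it.

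The classes were then set side by side. Each gene was centred on its mean over the 6 arrays and the genes of a class were averaged within an array, so that probe brightness dropped out. As the members were chosen with earlier results known, these means are described without a test. The anti-apoptotic mean was -0.11, -0.0075 and -0.0070 in WT and -0.065, 0.12 and 0.075 in Lxn-/-. The BH3-only mean was 0.042, 0.041 and -0.15 in WT and 0.12, -0.058 and -0.00020 in Lxn-/-. The values of the genotypes overlapped in both classes. The class medians of the differences were 0.082 and 0.077.

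The balance of survival genes over BH3-only genes varied far more within a genotype than between genotypes. This gap was -0.15, -0.048 and 0.14 in WT and -0.19, 0.17 and 0.075 in Lxn-/-, with a mean difference of 0.041 against SDs of 0.15 and 0.19. The direction of this difference turned with single arrays, to -0.026 without WT replicate 1 and -0.035 without Lxn-/- replicate 2, and it was 0.14 without Lxn-/- replicate 1. The first pool of each genotype was lowest, where Bcl2 was low and Bcl2l11 high.

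The gap between the anti-apoptotic mean and Bak1 was the only one of the 3 class gaps without overlap. It was -0.054, -0.10 and -0.16 in WT and 0.065, 0.073 and 0.18 in Lxn-/-, a mean difference of 0.21 with SDs of 0.054 and 0.062 (n = 3 each). It stayed free of overlap after quantile normalization, with a highest WT value of -0.068, a lowest Lxn-/- value of 0.067 and a difference of 0.20. With single arrays left out it ran from 0.17 to 0.24. Taken singly, the gap to Bak1 did not overlap for Bcl2 and Bcl2l1 and overlapped for Mcl1, with differences of 0.21, 0.18 and 0.24. For Bcl2 the genotypes barely parted, with a highest WT value of -0.0083, a lowest Lxn-/- value of -0.0043 and SDs of 0.11 and 0.095. A gap to Bak1 that was larger in every Lxn-/- pool was found for 9.47% of all genes, and a smaller one for 0.256%. These shares are for single genes, and none was computed for means of 3 genes, so the class gap has no like share beside it. The low Bak1 signal in Lxn-/- enters all of these gaps. For BH3-only genes the gap to Bak1 was 0.10, -0.052 and -0.30 in WT and 0.25, -0.099 and 0.10 in Lxn-/-, with overlap.

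**Figure D3:**
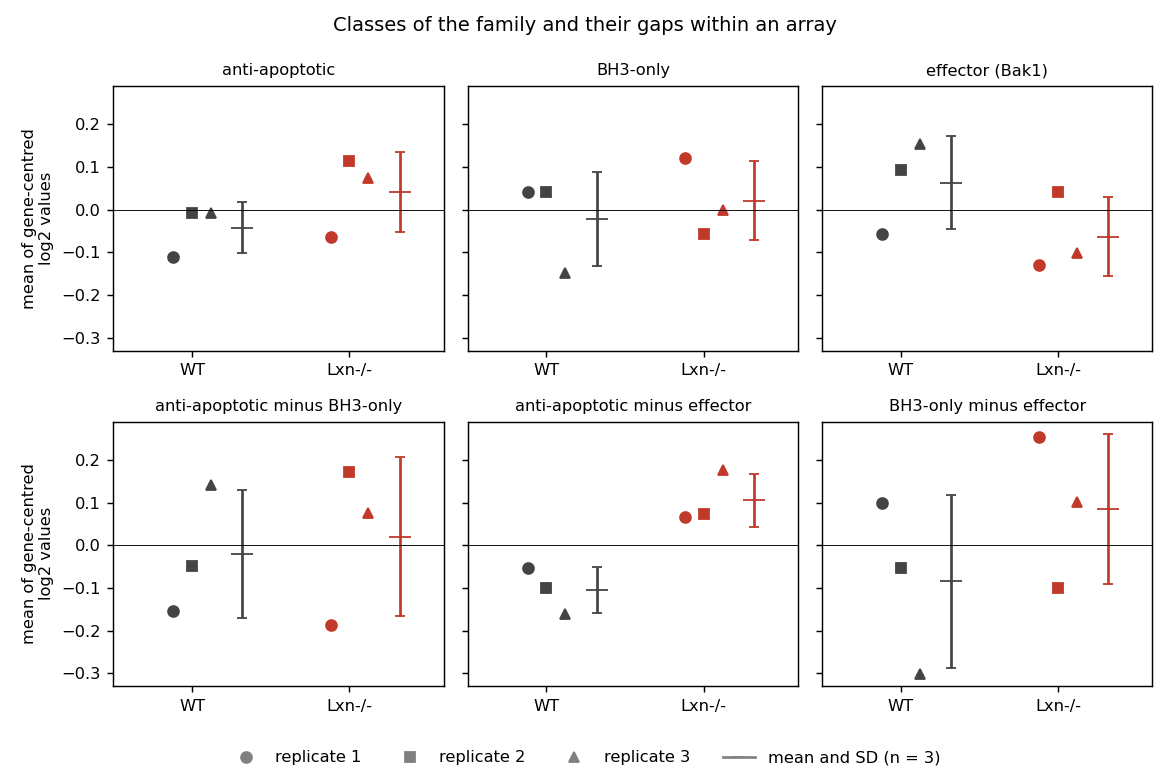
Upper row, mean of gene-centred log2 values of 3 anti-apoptotic genes, 5 BH3-only genes and Bak1 on each array; lower row, the gaps between these means within an array; ticks and bars are mean and SD (n = 3). Only the gap of anti-apoptotic genes to Bak1 keeps the genotypes apart, with WT at or below -0.054 and Lxn-/- at or above 0.065.

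Bcl2l11 and Bak1 ran in opposite senses over the 6 arrays. The arrays with high Bcl2l11 were WT replicate 1 and Lxn-/- replicates 1 and 3, and the same arrays had the lowest Bak1 signals. They also had the highest mean level of the neutrophil list, genes of granules and alarmins, with 11.52, 11.03 and 9.79 in WT and 11.28, 10.31 and 11.77 in Lxn-/-. All 12 genes of that list were above the dim level, and 10 of 12 had a higher mean in Lxn-/-. Elane, Mpo, Prtn3 and Ctsg did not follow the list mean and were highest in replicate 2 of each genotype. On Lxn-/- replicate 3, where the mean was highest, Elane and Mpo had their lowest values, 12.59 and 13.34. The other genes of the list were highest, like its mean, in WT replicate 1 and Lxn-/- replicate 3. The mean of the mitosis list ran opposite to the neutrophil mean, with 10.88, 11.03 and 11.20 in WT and 10.87, 11.07 and 10.67 in Lxn-/-, and 11 of 11 genes had a lower mean in Lxn-/-. These lists were set beside Bcl2l11 and Bak1 by correlation alone, given below, and their part in the signals was not tested.

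**Figure D4:**
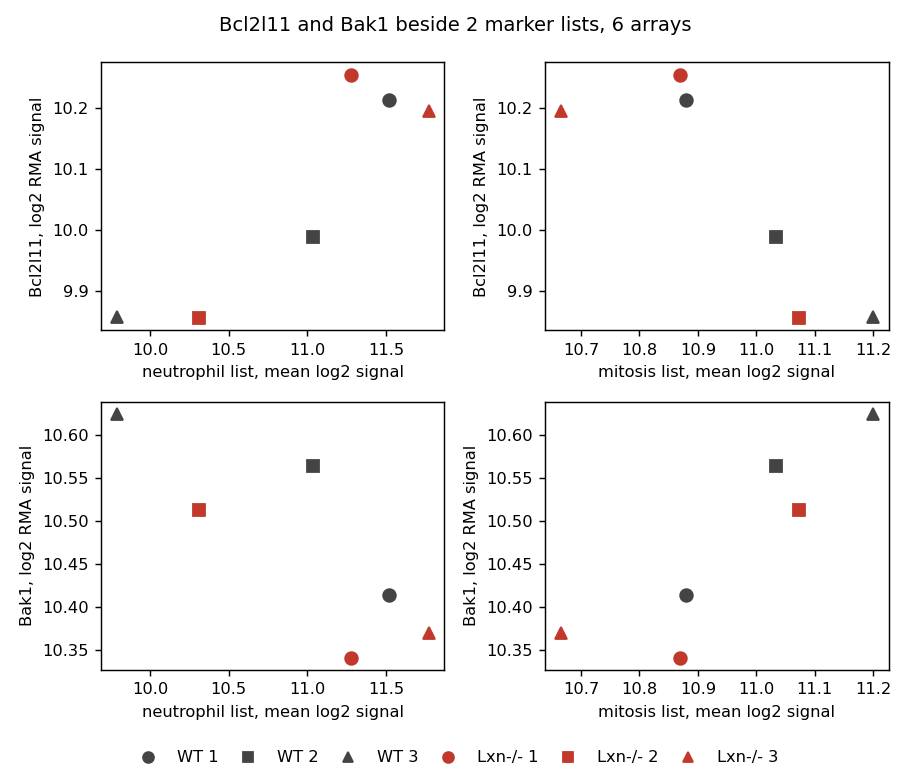
Log2 signal of Bcl2l11 (upper row) and Bak1 (lower row) against the mean log2 signal of the neutrophil list (left) and the mitosis list (right) on each of the 6 arrays. Bcl2l11 is high and Bak1 low on the 3 arrays with neutrophil levels from 11.28 to 11.77 and mitosis levels from 10.67 to 10.88.

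Over the 6 arrays, Bcl2l11 and the neutrophil list had r = 0.897 (exact permutation p = 0.0167) and rho = 0.714 (exact permutation p = 0.136). Without the arrays farthest from the median, WT replicate 3 and Lxn-/- replicate 2, r was 0.628, so the relation leans on them. Bak1 and the mitosis list had r = 0.887 (exact permutation p = 0.0222) and rho = 0.886 (exact permutation p = 0.0333), and r was 0.897 without WT replicate 3 and Lxn-/- replicate 3. Bak1 and the erythroid list had r = 0.907 (exact permutation p = 0.0139) and rho = 0.886 (exact permutation p = 0.0333), with r = 0.87 without WT replicate 3 and Lxn-/- replicate 3. Bak1 and the immediate early list had r = -0.882 (exact permutation p = 0.00694) and rho = -0.829 (exact permutation p = 0.0583), with r = -0.557 without WT replicates 2 and 3. Bcl2l11 and the erythroid list had r = -0.871 (exact permutation p = 0.0194) and rho = -0.771 (exact permutation p = 0.103), with r = -0.977 without WT replicate 3 and Lxn-/- replicate 3. Bcl2l11 and the T and NK cell list had r = -0.797 (exact permutation p = 0.025) and rho = -0.714 (exact permutation p = 0.136), with r = -0.142 without WT replicate 3 and Lxn-/- replicate 2. With the neutrophil list, Bak1 had r = -0.828 (exact permutation p = 0.0458), and -0.667 without WT replicate 3 and Lxn-/- replicate 2. For Bcl2l1 and the T and NK cell list r was 0.883 (exact permutation p = 0.0375). Without the same arrays it turned to -0.557. The pattern of Bcl2l11 and Bak1 was thus not particular to the neutrophil and mitosis lists. The relations above belong to 108 relations of 9 genes with 12 marker lists, of which 8 had an exact p under 0.05 for r. The lowest adjusted p was 0.45 for r and 0.637 for rho by Benjamini-Hochberg, so none passed. The relations given were picked after their values were seen, the arrays mix genotypes, and 3 arrays per genotype are too few for a value within each.

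The pathway around the family was followed through 7 further lists with 91 genes, of which 81 were measured. In limma 0 of 81 passed after adjustment and 0 of 81 had an unadjusted p under 0.05, against 3.9% of all probe sets. In the alternatives 0 passed after adjustment, while up to 5 had an unadjusted p under 0.05. The 5 came without WT replicate 1 (Birc2, Casp6, Tradd, Fas and Foxo1). The genotypes did not overlap for 3 of 81 genes, or 3.7%, against 8.98%. These were the BH3-only gene Bmf, at -0.082, the caspase inhibitor Xiap, at 0.050, and Gsk3b, whose kinase marks MCL1 for degradation, at 0.073; Xiap and Gsk3b are named because of this. Medians of the 7 lists ran from -0.029 to 0.011.

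Other multidomain relatives numbered 8 measured of 11, of which 5 were above the dim level. The survival gene Bcl2l2 differed by 0.057 (SE 0.086) and Bcl2l13, a mitochondrial receptor for mitophagy, by -0.091 (SE 0.095). The other BH3-only genes were all 7 measured, and Bnip3, another mitophagy receptor, differed by 0.090 (SE 0.090). Downstream of the pore, 8 of 10 genes of the apoptosome and the caspases were measured, 3 with a higher and 5 with a lower mean in Lxn-/-. Casp6, an executioner caspase, differed by -0.19 (SE 0.12) and Parp1, a caspase substrate that repairs DNA, by -0.083 (SE 0.092). The Casp6 difference ran from -0.30 without WT replicate 1 to -0.063 without WT replicate 3.

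Among the 13 genes of mitochondrial release and caspase inhibition, Birc5, which encodes the mitotic protein survivin, differed by -0.22 (SE 0.13), beside the lower means of the mitosis list. Endog, a mitochondrial nuclease gene, differed by 0.10 (SE 0.090). Of 10 death receptor genes, Tradd, an adaptor of the TNF receptor, differed by -0.18 (SE 0.097). Fas, the receptor that leads to cleavage of BID, differed by 0.20 (SE 0.11), but its signal was not above the dim level. The Tradd difference ran from -0.25 without WT replicate 1 to -0.093 without WT replicate 3, and that of Birc5 from -0.29 without WT replicate 3 to -0.095 without Lxn-/- replicate 3. Tradd and Fas had the 2 lowest p-values of the pathway lists, 0.0942 for Tradd and 0.0946 for Fas before adjustment in limma.

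Of 16 measured transcriptional regulators, 7 had a higher and 9 a lower mean in Lxn-/-. Foxo1, a forkhead factor, differed by -0.16 (SE 0.089) and Trp73, a relative of p53, by -0.12 (SE 0.088). Of 19 genes that set the phosphorylation or turnover of the proteins, 10 were higher and 9 lower. Pim3, a survival kinase that phosphorylates BAD, differed by 0.19 (SE 0.10) and Ywhae, one of the 14-3-3 genes, by -0.17 (SE 0.11). Foxo1 and Ywhae stood at -0.23 and -0.24 without WT replicate 1 and at -0.081 and -0.061 without WT replicate 3.

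**Figure D5:**
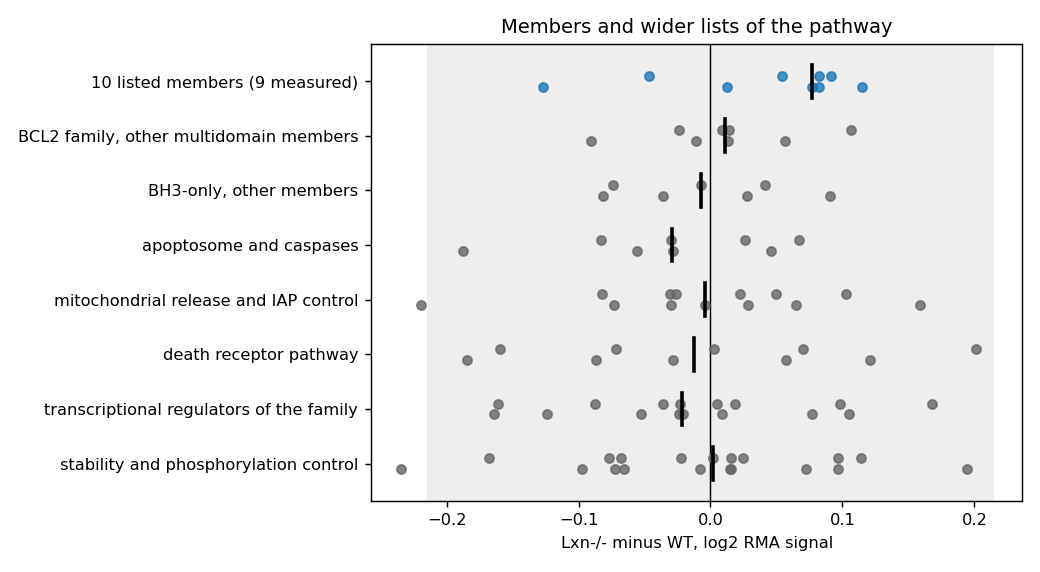
Difference between Lxn-/- and WT means on the log2 scale for each measured gene (points) of the BCL2 family members and of 7 wider lists, with the median of each list as a vertical tick; the grey band covers sizes up to 0.21, the 95th percentile over all genes. The medians of the wider lists lie between -0.029 and 0.011, and that of the family at 0.077.

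The signal of Lxn was lower in Lxn-/-, at 8.74 ± 0.073 (SD, n = 3), than in WT, at 9.21 ± 0.30 (SD, n = 3), with no overlap and an adjusted p of 0.993 in limma. The position of its probes is not known here, and a probe outside the deleted exons checks nothing. All 10 measured LT-HSC markers were above the dim level, while Ly6a, which encodes Sca1, was not analysed here. Also above it were 7 of 7 genes for CD34, Flt3 and lineage markers, 11 of 11 B cell, 9 of 9 plasma cell and 9 of 9 erythroid genes. Of the genes for CD34, Flt3 and lineage markers, Cd34 (13.12 in WT, 13.18 in Lxn-/-) and Flt3 (11.93 and 11.99) were brightest. Cd8a (7.13 and 7.13) was dimmest. Their array mean was 9.39 to 9.64 in WT and 9.42 to 9.91 in Lxn-/-. For the LT-HSC markers it was 10.46 to 10.61 and 10.51 to 10.71. LT-HSC is the name in the labels, and the purity of the pools was not tested. The plasma cell list, chosen with earlier results known, had lower means for 9 of 9 genes in Lxn-/- (median -0.57), the B cell list for 10 of 11 (median -0.38), the erythroid list for 9 of 9 (median -0.27) and the mast cell and eosinophil list for 6 of 7 (median -0.27). WT replicate 3 stood apart on the first principal component, with a score of 23.3 against -12.6 to 7.97 on the other arrays, and it was the lowest of the 6 arrays for 4 of 9 family genes.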

How the data were processed

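The deposited values are on the log2 scale, normalized by the authors with RMA, per the design text. The submitters' processing notes also list Partek 6.0. Per the labels' protocols, 100 ng of total RNA was labelled with biotin. The table held 35557 probe sets, of which 21789 had 1 gene symbol in GEO's platform annotation, 1621 several and 12147 none, and no symbol needed updating through RefSeq. The 23410 named probe sets were fitted with limma 3.58.1 in R 4.3.3 (lmFit and eBayes, 6 arrays, no covariates, two-sided, Benjamini-Hochberg over all of them, threshold 0.05), and tested on simulated data first. Each gene is its brightest probe set by the mean of 6 arrays. SE is limma's moderated standard error. An exact permutation test, two-sided, stands beside it for single genes.

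The members and lists were chosen with earlier results of these data known. Named are all members, Lxn and the 2 genes of lowest p per pathway list. Xiap and Gsk3b were added for lack of overlap, and Birc2 and Fadd for an unadjusted p under 0.05 in limma in an alternative. In 15 alternatives, quantile normalization, a common median, array weights, an intensity trend, robust eBayes, dim probe sets left out, the replicate number as a block, all probe sets, the mean of a gene's probe sets and 6 left-out arrays were tried. The number of arrays limits the precision.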

Additional observations from a re-analysis of the deposited data

How the results depend on the processing

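No family gene passed an adjusted p of 0.05 in limma under any of the 15 alternatives, and 0 probe sets passed in the 14 that tested probe sets. Same-numbered deviations from the genotype mean correlated at 0.372, -0.0719 and -0.0807, and differently numbered ones at -0.336 to 0.362. Deviations within 3 arrays are tied to each other, so these values cannot decide whether the replicate numbers pair the pools. With the replicate block, 1173 probe sets had an unadjusted p under 0.05 in limma, against 914. Of the 81 pathway genes, 3 (Tradd, Birc5 and Fadd) had such a p with the block, 5 without WT replicate 1 and 0 to 2 in the other alternatives. The count over all probe sets was 1807 with array weights, 541 without dim probe sets, where fewer were tested, 1597 with all probe sets of the table, where more were tested, and 611 to 1556 with single arrays left out. The cause was not tested for array weights or for the left-out arrays. Directions turned for Bcl2l1 (-0.0034), Bad (-0.047) and Bcl2l2 (-0.00024) with quantile normalization, for Bad with a common median (-0.033) and for Bcl2 with array weights (-0.013). With single arrays left out, ranges that crossed 0 were -0.039 to 0.17 for Bcl2, -0.0011 to 0.16 for Pmaip1, -0.086 to 0.087 for Bad, -0.0066 to 0.13 for Bcl2l2 and -0.035 to 0.14 for the anti-apoptotic minus BH3-only mean. The anti-apoptotic median ran from 0.018 to 0.17 and the BH3-only median from -0.0011 to 0.098. The cause was not tested. Bbc3 and Pmaip1 lay nearest to the dim level, which limits what could be seen of them.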
